A study of Mus musculus with 8 samples.

Results

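The TRIM family is a large group of proteins, most of them ubiquitin ligases, named for a tripartite motif of a RING finger, 1 or more B-boxes and a coiled coil. The RING finger recruits a ubiquitin-conjugating enzyme (E2), and the domain at the C-terminal end of the protein selects the target and sorts the family into classes. Family members are best known for restricting viruses and tuning the signalling of innate immune sensors, for silencing repeated DNA elements together with KRAB zinc finger proteins, and, in blood formation, for work in red cell precursors. The members described here are the genes whose symbol starts with Trim followed by a digit, which holds for 68 of the 47729 genes in the table. The RNA came from bone marrow of C57BL/6 mice with a disease like chronic myeloid leukaemia (CML), induced by the fusion kinase BCR-ABL1. There were 4 libraries of cells carrying a lentiviral shRNA against Fubp1, the knockdown group, and 4 of cells carrying a scrambled shRNA, the control group. FUBP1 binds single-stranded nucleic acid and is known as a regulator of Myc transcription. All 8 mice carried the BCR-ABL1 retrovirus with a red fluorescent reporter, and in all of them the marrow donors had been given 5-fluorouracil and the recipients irradiated with 900 cGy. Cells were sorted as live, free of lineage markers and positive for both reporters. BCR-ABL1 was expressed from a viral vector in transplanted marrow, and the sources used here give neither age nor sex of the mice.

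Fubp1 itself stood at 296, 284, 291 and 396 CPM (counts scaled to library size) in scrambled libraries 1 to 4 and at 281, 228, 220 and 239 in knockdown libraries 1 to 4. The groups did not overlap, but the gap was narrow, and the log2 fold change of -0.39 (SE 0.12) had an edgeR adjusted p of 0.0604. Total counts ran from 22465303 to 44761356 per library. Knockdown library 3 stood apart from its group: on the first principal component of all tested genes, which held 61.1% of the variance, it lay at -29.0, among the scrambled libraries (-57.3 to -13.7), with the other 3 knockdown libraries at 34.1 to 81.2. The calls are therefore also given without it further on. The sorted cells carried abundant erythroid transcripts, and the summed level of the 7 erythroid markers in the table ran from 1460 to 2330 CPM in scrambled and from 1490 to 3050 CPM in knockdown libraries. The 6 monocyte and macrophage markers summed to 4.02 to 10.6 CPM in scrambled libraries and to 122, 16.7, 9.96 and 55.2 CPM in knockdown libraries 1 to 4. The 5 endothelial and stromal markers summed to 3.33 to 12.5 CPM in scrambled and to 365, 30.0, 9.55 and 45.8 CPM in knockdown libraries 1 to 4, and the 4 mast cell and basophil markers to 0.833 to 11.4 and to 54.0, 8.89, 0.635 and 21.4 CPM. Single genes carried the endothelial and stromal sum. Col1a1 alone gave 332 of the 365 CPM in knockdown library 1, and Pecam1 gave 29.5, 9.33 and 45.3 CPM in knockdown libraries 2 to 4. The T and NK cell markers summed to 1.8 to 8.1 CPM in scrambled and 2.03 to 86.6 CPM in knockdown libraries, with Cd2 and Cd3e at 0 in all 8. The highest of these sums, in knockdown library 4, was Nkg7 at 86.6 CPM. The 5 B cell markers summed to 0.135 to 0.727 CPM in scrambled and to 3.59, 1.55, 0.476 and 2.37 CPM in knockdown libraries 1 to 4, with 2 of the 5, Ms4a1 among them, at 0 in all 8. The 4 megakaryocyte markers summed to 50.0 to 64.1 CPM in scrambled and 111 to 190.0 CPM in knockdown libraries, without overlap. Most of that sum was Itga2b, at 35.6 to 46.8 CPM in scrambled and 90.6 to 162 CPM in knockdown libraries. Gp1ba did not overlap either (8.4 to 11.5 and 13.9 to 20.1 CPM), whereas Pf4 and Gp9 overlapped and did not pass the test. The 7 neutrophil markers summed to 1.26 to 6.44 and 0.666 to 23.0 CPM, and the 5 progenitor markers to 440.0 to 750.0 and 354 to 535 CPM. The part of such cells in the values of the Trim genes was not tested. In bulk RNA, fewer cells of a type and less RNA per cell cannot be told apart.

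Of the 68 members, 42 passed the filter on low counts and were tested. The other 26 comprised 8 without a single count and 18 with at most 64 counts summed over the 8 libraries, the highest at a mean of 0.21 CPM. Among the 26 were 4 members known from muscle (Trim54, Trim55, Trim63 and Trim72) and several copies of the mouse Trim30, Trim34 and Trim43 groups. Levels between genes were compared as CPM per kilobase of merged exons. On this scale Trim28, the scaffold through which KRAB zinc finger proteins recruit chromatin silencers, led the family at 176 CPM per kilobase. Trim10, a gene of red cell maturation, followed at 44.1, then Trim27 at 37.5 and Trim25, the ligase that activates the RNA sensor RIG-I, at 36.5. Trim44, Trim59, Trim37 and Trim8 lay between 21.9 and 26.7. The lowest tested member was Trim9, a neuronal gene, at 0.0243.

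**Figure D1:**
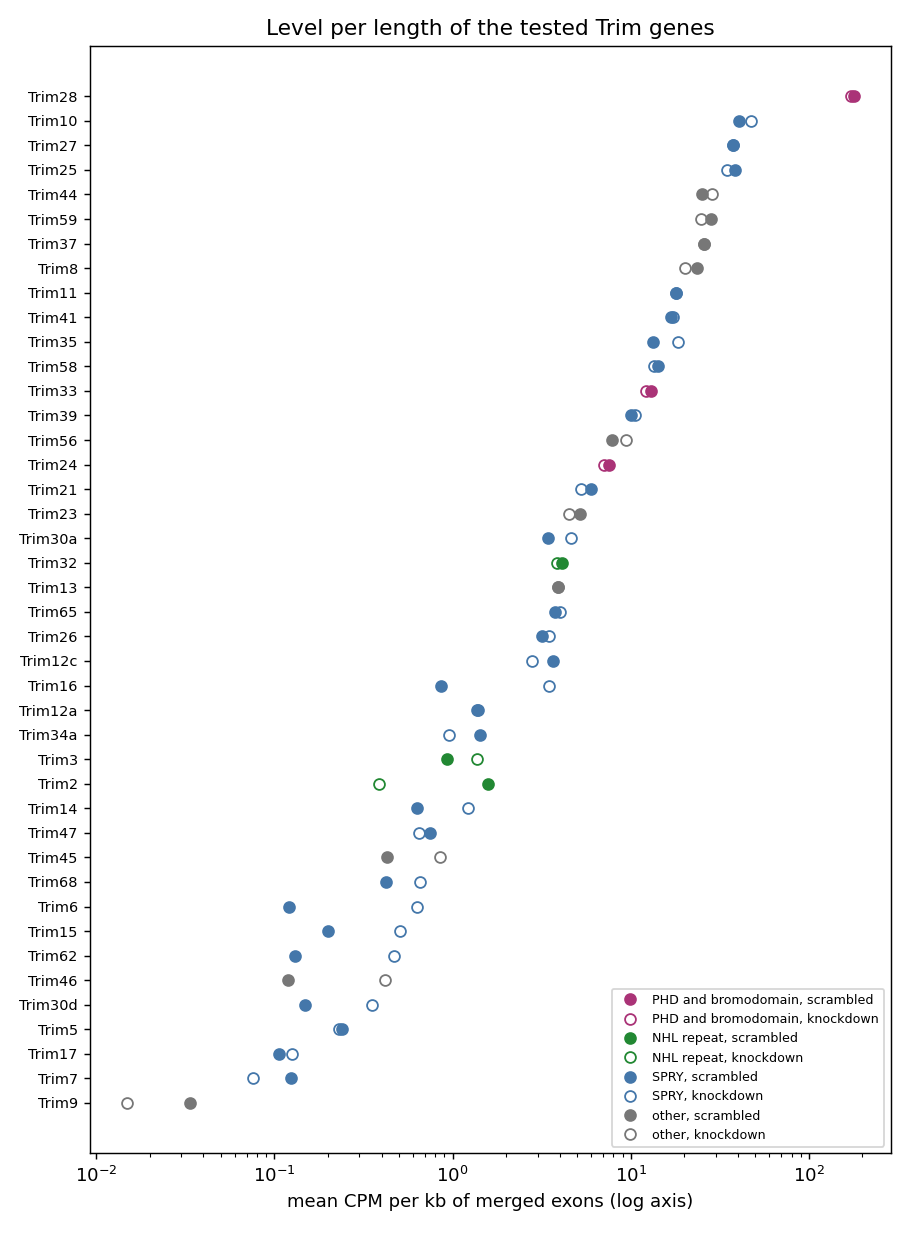
Mean level of each tested Trim gene in scrambled (filled) and knockdown (open) libraries, in CPM per kilobase of merged exons on a log axis. Genes are ordered by their mean over the 8 libraries. Colour marks the domain class at the C-terminal end, with some classes pooled. By the mean over the 8 libraries Trim28 stands highest at 176 and Trim9 lowest at 0.0243.

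The most abundant members differed little between the groups. Trim28 stood at 747 ± 38.7 CPM (SD, n = 4) in scrambled and 716 ± 20.6 CPM in knockdown libraries, a log2 fold change of -0.06 (SE 0.05, edgeR adjusted p = 0.464). Trim25 stood at 221 ± 31.4 and 199 ± 24.7 CPM, a log2 fold change of -0.16 (SE 0.12). Of the 10 members with the highest mean CPM, Trim8 alone passed the test at the adjusted p threshold of 0.05. The others were Trim27, with 207 ± 15.4 and 206 ± 1.6 CPM, and Trim37, a ligase of centrosomes and peroxisomes, with 186 ± 15.1 and 187 ± 9.15 CPM. Trim44, which lacks a RING finger, had 141 ± 16.7 and 161 ± 13.3 CPM. Trim33, a chromatin-bound regulator of SMAD4 and of erythroid transcription, had 127 ± 6.84 and 120 ± 10.5 CPM. Trim10 had 91.0 ± 20.5 and 107 ± 32.6 CPM, Trim59 had 94.3 ± 12.4 and 83.4 ± 17.8 CPM, and Trim56, which takes part in DNA sensing through STING, had 73.3 ± 14 and 87.9 ± 11.7 CPM. The fitted log2 fold changes of these 9 lay between -0.18 and 0.26.

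Of the 42 tested members, 7 (16.7%) passed the test, and 15.3% of all 13462 tested genes did. The family's share was thus near that of all genes. The 5 that were higher in the knockdown were Trim16, Trim62, Trim6, Trim46 and Trim35, which is 11.9% of those tested beside 8.02% of all genes. The 2 that were lower were Trim2 and Trim8, which is 4.76% beside 7.29%. The groups did not overlap for 8 members (19.0%), beside 20.7% of all genes: 5 were higher in the knockdown, where 9.54% of all genes were, and 3 were lower, where 11.1% of all genes were. The median log2 fold change of the tested members was 0.01 and that of all genes 0.00, and single members ran from -2.03 to 2.38. At an unadjusted p under 0.05 there were 12 members. The share of all genes at that threshold was not computed, so this count describes the members only.

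**Figure D2:**
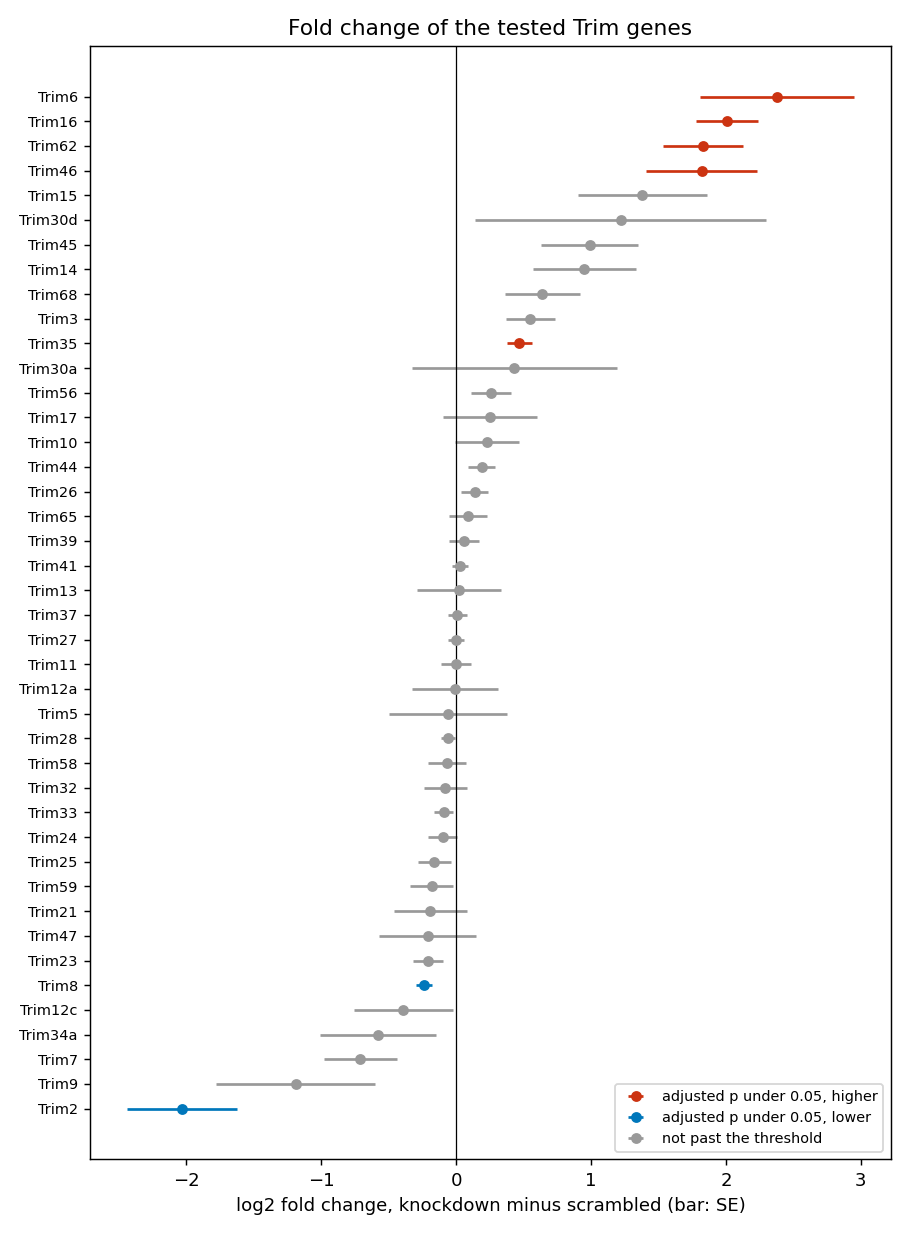
Log2 fold change, knockdown minus scrambled, of each of the 42 tested Trim genes with its standard error. The 5 members called higher and the 2 called lower stand out from a family whose median is 0.01.

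The calls are also given by level, with no test of the split. Of the 24 with a mean of 10 CPM or more, 1 was higher (Trim35) and 2 were lower (Trim2 and Trim8), which is 12.5% beside 17.2% of the 8341 genes at such levels. Of the 18 under 10 CPM, 4 were higher and 0 were lower, which is 22.2% beside 12.3% of the 5121 genes at such levels, of which 10.2% were higher. A gene near the filter can pass it through the group in which it is high, so the counts below 10 CPM describe these genes only.

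The largest class carries a SPRY domain, a protein-binding fold, at its C-terminal end, and held 38 members, of which 26 were tested. In it 4 rose in the knockdown, 0 fell and 22 did not pass the test, and the median fold change of the 26 was 0.07 on the log2 scale. Calls made up 15.4%, beside 15.3% of all genes. Trim16 (ENSMUSG00000047821, GRCm38 chromosome 11, 62820231 to 62850808, plus strand), which lacks a RING finger and takes part in the response to oxidative and lysosomal damage, had the smallest adjusted p of the family. Its level was 4.47, 3.42, 3.56 and 4.41 CPM in scrambled libraries 1 to 4 and 21.0, 17.4, 10.1 and 15.1 CPM in knockdown libraries 1 to 4. Every knockdown library lay above every scrambled one, and knockdown library 3 was the lowest of its group. The means were 3.96 ± 0.552 and 15.9 ± 4.58 CPM (SD, n = 4), which is 4.02-fold higher, with a log2 fold change of 2.01 (SE 0.23, edgeR adjusted p = 0.00282).

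Trim62 (ENSMUSG00000041000, chromosome 4, 128883580 to 128911328, plus strand), a ligase known for its part in epithelial cell polarity, was rare but separated the groups as clearly. It had 30, 26, 14 and 14 counts in the scrambled libraries and 63, 78, 54 and 116 in the knockdown libraries. In CPM these were 0.833, 0.8, 0.364 and 0.629 against 2.54, 2.58, 1.71 and 2.52. The 3 knockdown libraries other than the third were within 0.06 CPM of each other, and the third was lower. The means were 0.656 ± 0.215 and 2.34 ± 0.417 CPM (SD, n = 4), which is 3.56-fold higher, with a log2 fold change of 1.83 (SE 0.30, edgeR adjusted p = 0.00952).

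Trim35 (ENSMUSG00000022043, chromosome 14, 66297031 to 66311424, plus strand), cloned as a gene of haemopoietic lineage choice, was the one abundant member that rose. It stood at 64.5, 62.1, 62.8 and 56.7 CPM in the scrambled and 78.3, 88.4, 76.2 and 99.2 CPM in the knockdown libraries, with no overlap. The means were 61.6 ± 3.36 and 85.5 ± 10.6 CPM (SD, n = 4), which is 1.39-fold higher, with a log2 fold change of 0.47 (SE 0.09, edgeR adjusted p = 0.0148). Leaving out scrambled library 2 took its adjusted p to 0.056.

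Trim6 (ENSMUSG00000072244, chromosome 7, 104218793 to 104235152, plus strand), which makes unanchored ubiquitin chains for the antiviral kinase IKK epsilon, had the largest fold change of the 42 tested members and the largest standard error of the 7 called ones. It had 10, 22, 28 and 15 counts in the scrambled and 159, 78, 30 and 112 in the knockdown libraries. In CPM these were 0.278, 0.677, 0.727 and 0.674 against 6.41, 2.58, 0.952 and 2.44. Knockdown library 1 was far above the rest, and knockdown library 3 lay just above the highest scrambled library. The means were 0.589 ± 0.209 and 3.09 ± 2.33 CPM (SD, n = 4), which is 5.25-fold higher, with a log2 fold change of 2.38 (SE 0.57, edgeR adjusted p = 0.0287). Knockdown libraries 1 and 3 were also the highest and the lowest of their group in several of the summed markers given above. These were the monocyte and macrophage, endothelial and stromal, and mast cell and basophil markers. In the endothelial and stromal sum of knockdown library 1, Col1a1 alone gave 332 of 365 CPM. The part of such cells in the Trim6 values was not tested. Without knockdown library 1 the log2 fold change of Trim6 was 1.76 (adjusted p = 0.0558) and without knockdown library 3 it was 2.67 (adjusted p = 0.00641).

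Trim7, a SPRY member known for binding the glycogen primer glycogenin, separated the groups without passing the test. Its levels were 0.971, 0.769, 0.701 and 1.35 CPM in scrambled and 0.524, 0.694, 0.508 and 0.566 CPM in knockdown libraries, and the lowest scrambled library was barely above the highest knockdown library. The log2 fold change was -0.71 (SE 0.27, edgeR adjusted p = 0.105).

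Trim46 (ENSMUSG00000042766, chromosome 3, 89234177 to 89246309, minus strand) belongs to a class with a COS box, a microtubule-binding segment, followed by fibronectin and SPRY domains, and organises microtubules at the start of axons. Of the 4 members of that class 2 were tested, Trim46 rose and Trim9 had a log2 fold change of -1.19 (SE 0.59, edgeR adjusted p = 0.193). Trim46 had 13, 11, 17 and 15 counts in scrambled and 41, 53, 20 and 106 in knockdown libraries, or 0.361, 0.339, 0.441 and 0.674 CPM against 1.65, 1.75, 0.635 and 2.31 CPM. The groups overlapped, since knockdown library 3 lay under scrambled library 4. The means were 0.454 ± 0.154 and 1.59 ± 0.697 CPM (SD, n = 4), which is 3.5-fold higher, with a log2 fold change of 1.82 (SE 0.41, edgeR adjusted p = 0.0241). Its locus overlaps Krtcap2 on the opposite strand, which stood at 43.2 ± 3.23 and 53.8 ± 6.5 CPM (log2 fold change 0.32, adjusted p = 0.0594), and the sources used here do not say whether the authors' counts kept the strands apart.

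Trim2 and Trim3 belong to the class that ends in NHL repeats, a propeller fold, and both are best known from neurons, where Trim2 targets the light neurofilament. Of the 4 members of that class 3 were tested, 1 fell and 0 rose. Trim2 (ENSMUSG00000027993, chromosome 3, 84160439 to 84306877, minus strand) had 1283, 1394, 1343 and 256 counts in scrambled and 143, 239, 352 and 270 in knockdown libraries. In CPM it stood at 35.6, 42.9, 34.9 and 11.5 against 5.76, 7.89, 11.2 and 5.88. Scrambled libraries 1 to 3 lay far above every knockdown library, whereas scrambled library 4 and knockdown library 3 were almost level. The means were 31.2 ± 13.6 and 7.68 ± 2.53 CPM (SD, n = 4), which is 4.07-fold lower, with a log2 fold change of -2.03 (SE 0.41, edgeR adjusted p = 0.0192). Its adjusted p ran from 0.0514 to 0.0595 when scrambled library 1, 2 or 3 or knockdown library 1 was left out.

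Trim3, a brain-enriched partner of motor and synaptic proteins, lies on chromosome 7 from 105604463 to 105633571 on the minus strand. It stood at 3.89, 4.4, 4.36 and 4.45 CPM in scrambled and 7.25, 7.23, 5.9 and 4.64 CPM in knockdown libraries. The groups did not overlap, with knockdown library 4 closest to the scrambled ones. The log2 fold change was 0.55 (SE 0.18, edgeR adjusted p = 0.069). The adjusted p fell under the threshold only without knockdown library 4 and with DESeq2, among the alternatives run. The third tested NHL member, Trim32, had a log2 fold change of -0.08 (SE 0.16).

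Trim8 (ENSMUSG00000025034, chromosome 19, 46501702 to 46516848, plus strand), a regulator of cytokine signalling through SOCS1 and STAT3, ends in no domain of a known TRIM class. In that class 3 of 7 members were tested, 1 fell, and Trim44 and Trim56 did not pass the test. Trim8 stood at 89.3, 94.8, 82.9 and 83.9 CPM in the scrambled and 71.0, 76.0, 77.4 and 73.2 CPM in the knockdown libraries. The groups did not overlap, and the difference was small beside that of the other called members. The means were 87.7 ± 5.49 and 74.4 ± 2.87 CPM (SD, n = 4), with a log2 fold change of -0.24 (SE 0.06, edgeR adjusted p = 0.0364).

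**Figure D3:**
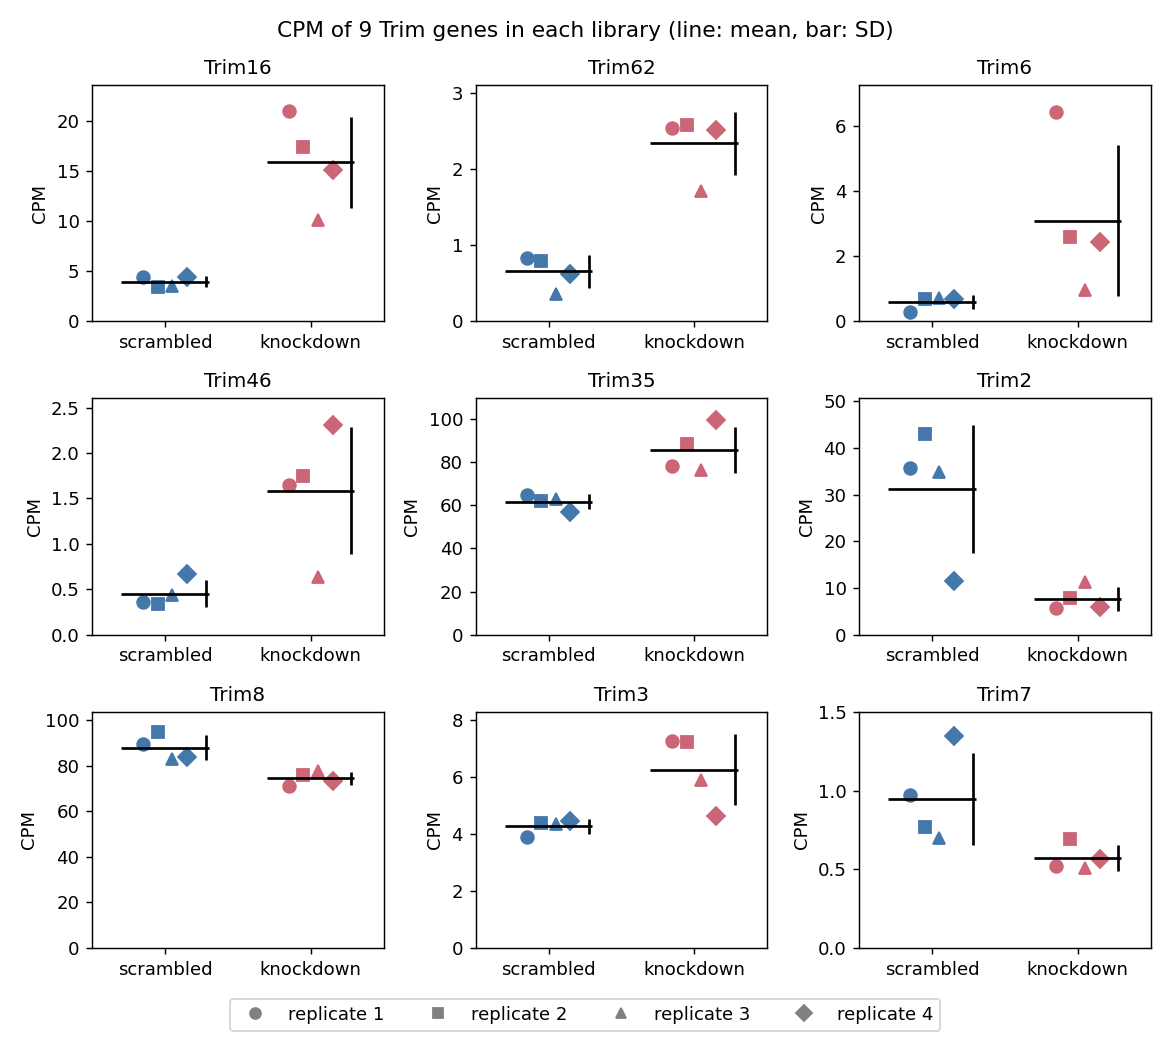
CPM of the 7 called Trim genes and of Trim3 and Trim7 in each of the 4 scrambled and 4 knockdown libraries, with a panel for each gene and the group mean with its SD. Trim16 and Trim62 separate the groups widely, Trim46 overlaps, and knockdown library 3 is the knockdown library nearest the scrambled mean in all 7 called genes.

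The remaining classes held no called member. The 3 tested members with a PHD finger and a bromodomain, a pair of modules that in some proteins read histone tails, were Trim24, Trim28 and Trim33. Their log2 fold changes were -0.10, -0.06 and -0.09. Trim23, the member with an ARF domain, had a log2 fold change of -0.21 (SE 0.11). Trim45, the member with a filamin domain and no NHL repeats, had 2.58 ± 0.635 CPM in scrambled and 5.13 ± 2.72 CPM in knockdown libraries (log2 fold change 0.99, SE 0.36, edgeR adjusted p = 0.0872). The membrane-anchored Trim13 and Trim59 had log2 fold changes of 0.02 and -0.18. Trim15 and Trim14, both SPRY members, had log2 fold changes of 1.38 (SE 0.48) and 0.95 (SE 0.38) with adjusted p values of 0.0816 and 0.116.

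The called members differed in how much they rested on single libraries. Trim16 and Trim62 kept an adjusted p under 0.05 without each of the 8 libraries in turn, from 0.000947 to 0.0165 and from 0.00481 to 0.0324. Trim35 kept it in 7 of the 8 fits and Trim2 in 4 of 8. Trim6, Trim46 and Trim8 kept it in 2 of 8 each: Trim6 without knockdown library 3 or 4, Trim46 and Trim8 without knockdown library 3 or scrambled library 4. In each of the 7 called members knockdown library 3 was the knockdown library closest to the scrambled mean, which held for 53.0% of the 2062 called genes. Without it, 3425 genes were called in all, and 8 members rose and 2 fell, with Trim14, Trim45 and Trim68 added to the 7. The log2 fold changes without it were 2.16 for Trim16, 1.94 for Trim62, 0.52 for Trim35, 2.08 for Trim46, -2.28 for Trim2 and -0.27 for Trim8.

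**Figure D4:**
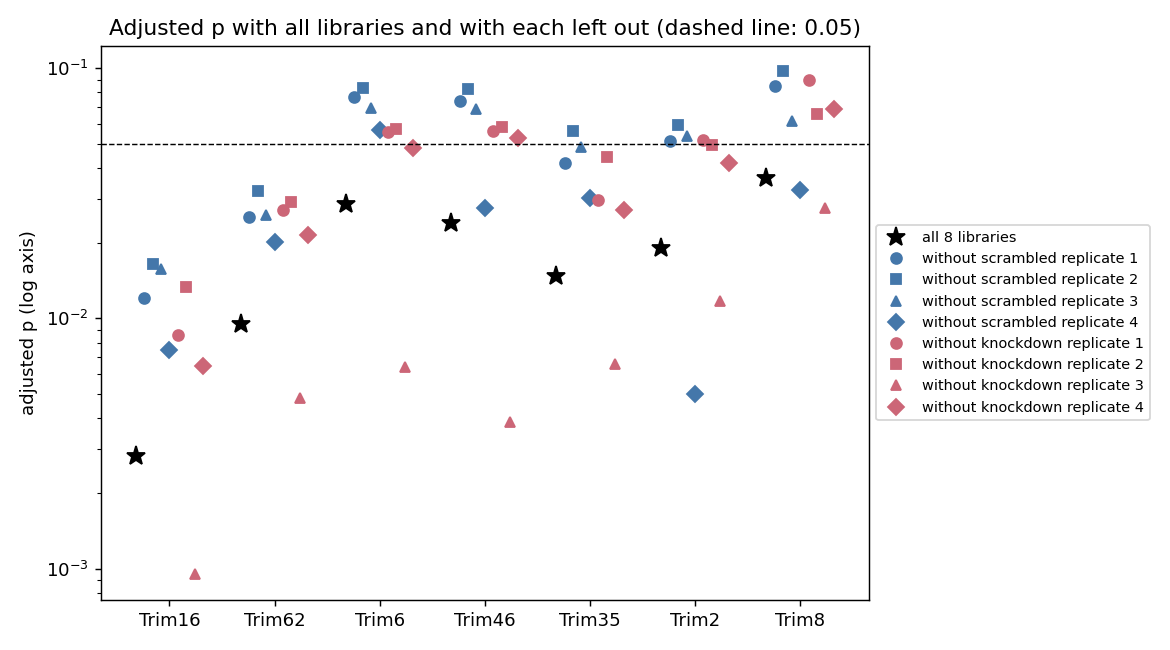
Adjusted p of the called Trim genes with each of the 8 libraries left out in turn, on a log axis, with the threshold of 0.05 as a line. Trim16 and Trim62 stay on 1 side of the line in all 8 fits, and the other 5 cross it in at least 1.

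A stretch of 1980 kilobases on chromosome 7, from Trim21 (start 102557921) to Trim30e-ps1 (end 104535361), holds 13 of the 68 members. It includes the mouse copies related to human TRIM5, the restriction factor against retroviral capsids, and the Trim30 group, which interferon is known to induce. Because these copies are alike in sequence, the authors' counting could have split or dropped their reads, and their values are uncertain to that degree. Of the 13, 9 were tested and 1, Trim6, was called. The promoters of 4 of them are shown with that of Trim6 because they are the promoters of the stretch with a match to an interferon motif before the start, and Trim6 is the called gene. Each line gives the 100 bases before the gene's start, 5′ to 3′ on the gene's strand, from RefSeq on GRCm38.p6. Capitals mark a match to GAAA, any 2 bases and GAAA, or its reverse complement, which is the core of the interferon-stimulated response element.
Trim5: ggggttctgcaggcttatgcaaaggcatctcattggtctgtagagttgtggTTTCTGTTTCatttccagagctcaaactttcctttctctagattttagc
Trim12c: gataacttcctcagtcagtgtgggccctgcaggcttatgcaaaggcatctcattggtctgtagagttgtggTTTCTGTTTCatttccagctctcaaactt
Trim30a: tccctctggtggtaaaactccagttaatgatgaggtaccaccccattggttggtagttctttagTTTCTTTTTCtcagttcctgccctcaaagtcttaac
Trim30d: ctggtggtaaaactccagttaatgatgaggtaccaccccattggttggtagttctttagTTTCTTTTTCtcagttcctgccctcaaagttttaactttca
Trim6: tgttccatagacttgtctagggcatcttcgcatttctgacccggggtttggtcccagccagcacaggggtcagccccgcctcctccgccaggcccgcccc

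The positions are chr7:104288107-104288206 for Trim5, chr7:104353350-104353449 for Trim12c, chr7:104465194-104465293 for Trim30a and chr7:104507850-104507949 for Trim30d, all on the minus strand, and chr7:104218695-104218794 on the plus strand for Trim6. Trim30a has a second listed start whose 100 bases hold no match. A further Trim30a match (TTTCTTTTTC) begins at base 3 after a listed start. The matched 10 bases begin 49 bases before the start in Trim5, 29 in Trim12c, 36 in Trim30a and 41 in Trim30d. In Trim12a and Trim34a a match begins at base 11 after the start (TTTCTGTTTC and TTTCAGTTTC), and in Trim21 matches begin at bases 14 and 20 (GAAACTGAAA and GAAAGTGAAA). The promoters are not independent of each other: in the 250 bases before the start, Trim12a and Trim5 share an identical run of 191 bases, and Trim30a and Trim30d one of 118. In a window of 300 bases, from 250 before the start to 50 after it and on both strands, the motif was found in 7 of the 12 members of the stretch with a RefSeq window (58.3%). These 7 are the tested members other than Trim6 and Trim68. It was found in 2 of the 40 other members with a window (5.0%, Trim2 and Trim26) and in 3.99% of 27025 genes. The motif was chosen after the values below had been seen. In the 250 bases before the start alone it was found in 4 of the 12 (33.3%) and in 3.46% of all genes. Searched in the same way, CACGTG was found in 0 of the 12 (8.09% of all genes), TGA, any 4 bases and GCA in 0 (14.7%), TTC, any 3 bases and GAA in 1 (9.55%) and AGATAA in 1 (12.7%). RefSeq windows were found for 52 of the 68 members. A match is a description of the letters and not of a factor bound there.

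In the tested genes of the stretch other than Trim6 and Trim68, the larger of the group SDs exceeded the difference between the group means. Trim68 stood at 1.47 ± 0.276 CPM in scrambled and 2.3 ± 0.702 CPM in knockdown libraries, with overlap (log2 fold change 0.64, SE 0.28, edgeR adjusted p = 0.151). Trim30a stood at 6.44, 15.1, 32.5 and 2.25 CPM in scrambled libraries 1 to 4 and at 32.9, 12.4, 7.52 and 23.6 CPM in knockdown libraries 1 to 4. Scrambled library 3 was 14.5-fold above scrambled library 4, and the groups overlapped throughout (log2 fold change 0.43, SE 0.76). Trim21, the cytosolic receptor for antibody-coated virus, stood at 21.0, 23.9, 31.8 and 12.7 against 24.2, 15.4, 16.3 and 22.5 CPM. Scrambled libraries 3 and 4 were again the extremes. Trim12c followed with 12.3, 13.9, 22.7 and 5.8 against 14, 7.89, 8.63 and 11.2 CPM, and Trim34a with 3.19, 4.77, 5.64 and 1.17 against 2.9, 1.95, 1.9 and 3.16 CPM. Of the 9 tested genes, scrambled library 4 was the lowest scrambled library in 8 (88.9%) and scrambled library 3 the highest in 8 (88.9%), beside 33.4% and 24.2% of all tested genes. The exceptions were Trim6 for the lowest and Trim5 for the highest. Knockdown library 1 was the highest of its group in 6 of the 9 (66.7%), beside 18.7% of all genes.

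Some genes of the antiviral and interferon list had the same extremes among the scrambled libraries. Of its 22 genes, scrambled library 4 was the lowest scrambled library in 11 and scrambled library 3 the highest in 13, and both held in 9 (40.9%), beside 13% of all tested genes. Irf7, which amplifies interferon production, stood at 61.8, 67.7, 114 and 17.7 CPM in scrambled and 62.5, 40.1, 63.2 and 40.6 CPM in knockdown libraries. In Stat2, Irf7, Irf9, Isg15, Ddx58 and Ifih1, a selection made after the values were seen, scrambled library 4 was the lowest scrambled library in 6 of 6 and scrambled library 3 the highest in 6 of 6. Knockdown library 1 was the highest of its group in 5 of the 6. The highest scrambled library exceeded the lowest 6.43-fold for Irf7 and 10.6-fold for Ddx58, which encodes RIG-I. These genes and the Trim genes were read in the same libraries, and no test was made of the shared order.

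**Figure D5:**
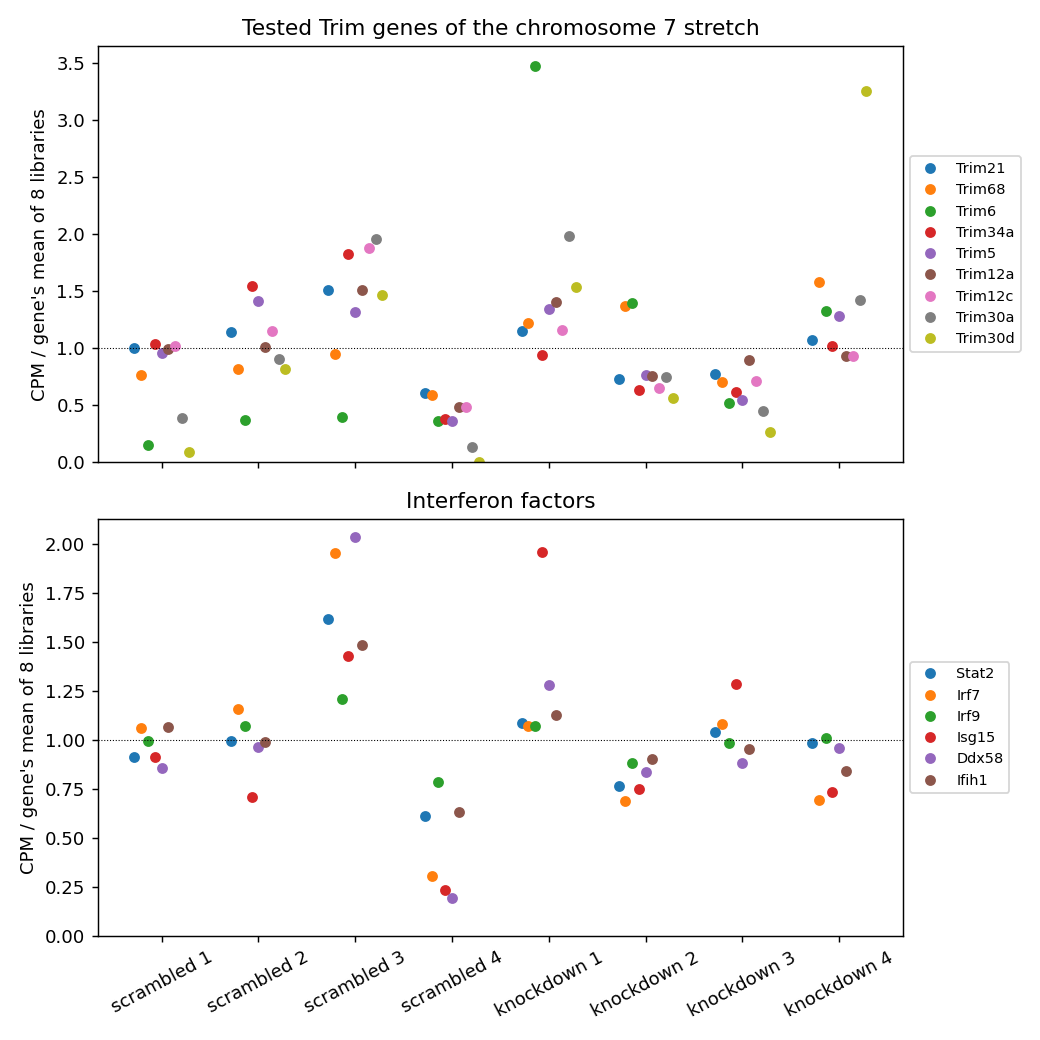
Level of each tested Trim gene of the chromosome 7 stretch (upper panel) and of 6 interferon factors (lower panel) in each library, as CPM divided by the gene's mean over the 8 libraries. Scrambled library 4 is the lowest and scrambled library 3 the highest scrambled library in 8 of the 9 upper genes each. The same holds for all 6 lower genes, which were chosen after the values were seen. In the full list of 22 antiviral and interferon genes both extremes held in 9. Trim6 departs from its neighbours in knockdown library 1.

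Partners of the family were described by lists, whose counts stand beside the 15.3% called among all genes. Without knockdown library 3, where 24.7% of all genes were called, the E1 and E2 list had 3 genes higher and 0 lower, the TRIM28 list 0 and 2, the antiviral list 5 and 1, the erythroid list 3 and 6, and the list of TRIM-like proteins under other names 1 and 0. The list of ubiquitin-activating (E1) and E2 enzymes had 17 tested genes, of which 3 rose (17.6%), 0 fell, and the median log2 fold change was 0.10. Ube2d3, of the E2 subfamily that many RING ligases use, stood at 209 ± 7.03 CPM in scrambled and 247 ± 13.8 CPM in knockdown libraries (SD, n = 4; log2 fold change 0.24, edgeR adjusted p = 0.0247). Its relative Ube2d1 stood at 6.45 ± 0.541 and 11.3 ± 3.35 CPM (log2 fold change 0.81, edgeR adjusted p = 0.0383). Ube2e1 stood at 29.6 ± 1.88 and 35.6 ± 2.18 CPM (log2 fold change 0.27, edgeR adjusted p = 0.0465). Of the 8 fits with a library left out, Ube2d1 and Ube2e1 passed in 1, the fit without knockdown library 3. Their relatives Ube2d2a, Ube2e2 and Ube2e3 did not pass the test, with log2 fold changes of 0.07, 0.08 and -0.12.

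The list around TRIM28, with KRAB zinc finger co-repressor components, had 16 tested genes, of which 0 rose, 2 fell (12.5%), and the median log2 fold change was -0.06. Both are subunits of the NuRD deacetylase complex. Chd4, Hdac1 and Hdac2, of the same complex and list, did not pass the test. Their log2 fold changes were -0.05, -0.12 and -0.05 (edgeR adjusted p = 0.503, 0.169 and 0.457). Mta2 stood at 610 ± 21.1 and 498 ± 23.9 CPM (SD, n = 4; log2 fold change -0.29, edgeR adjusted p = 0.0124). Chd3 stood at 138 ± 10.3 and 102 ± 14 CPM (log2 fold change -0.44, edgeR adjusted p = 0.0246).

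The list of antiviral sensing and interferon factors had 22 tested genes, of which 2 rose, 1 fell and 19 did not pass the test (13.6% called), with a median log2 fold change of -0.03. Mavs, the mitochondrial adaptor of RIG-I, stood at 50.9 ± 4.73 and 78.4 ± 16.1 CPM (SD, n = 4; log2 fold change 0.63, edgeR adjusted p = 0.0240). Mb21d1, which encodes the DNA sensor cGAS, stood at 25.7 ± 6.74 and 43.1 ± 5.58 CPM (log2 fold change 0.74, edgeR adjusted p = 0.0335). Tab2, an adaptor that binds ubiquitin chains, stood at 202 ± 6.56 and 159 ± 15 CPM (log2 fold change -0.35, edgeR adjusted p = 0.0173).

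The erythroid list, the setting of Trim10 and Trim58, had 17 tested genes, of which 4 rose, 6 fell and 7 did not pass the test (58.8% called), with a median log2 fold change of -0.02. Among those that fell were the transcription factors Lmo2 (log2 fold change -1.00) and Klf1 (-0.46), Ermap (-0.62), which encodes a red cell surface protein, and Epor (-0.42), which encodes the receptor for erythropoietin. The 4 that rose were Hbb-bs (1.63) and Hbb-bt (1.17), which encode adult beta globins, Alas2 (1.40), of haem synthesis, and Dync1h1 (0.26), the dynein heavy chain. Dync1h1 belongs to dynein, on which Trim58 acts, and was not among the erythroid markers given above. The erythroid members of the family did not pass the test. Trim10 stood at 80.3, 85.0, 77.3 and 121 CPM in scrambled and 106, 66.7, 146 and 109 CPM in knockdown libraries, with overlap (log2 fold change 0.23, SE 0.24). Trim58, the ligase that removes dynein in late erythroblasts, stood at 37.3, 32.4, 31.4 and 23.3 against 26.8, 29.9, 32.9 and 29.2 CPM (log2 fold change -0.07, SE 0.14).

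Proteins built like TRIM proteins but carrying other names formed a list of 13 genes, of which 5 were tested. With edgeR 0 passed the test, and 3 had an unadjusted p under 0.05. The share of all genes at that unadjusted threshold was not computed, so the 3 describe the list only. DESeq2 called 1 gene of the list, beside 22.2% of all genes. Pml, the organiser of nuclear bodies, stood at 268 ± 18.0 CPM in scrambled and 228 ± 27.9 CPM in knockdown libraries (edgeR adjusted p = 0.11). Mefv, which encodes pyrin of the inflammasome, had a log2 fold change of 3.66 (SE 1.16, edgeR adjusted p = 0.0677).

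An adjusted p under 0.05 was listed for 10 members in the authors' deposited table, in which not every member had an adjusted p. Of all 15978 genes with an adjusted p there, 21.3% were under 0.05. The matching share of the members was not computed, so the count of 10 describes the members only. The authors' deposited table gave log2 fold changes of 1.81 for Trim16, 1.49 for Trim62, 1.45 for Trim6, 1.25 for Trim46, 0.46 for Trim35, -1.62 for Trim2 and -0.24 for Trim8. It also passed Trim3 (0.50), Trim45 (0.78) and Trim43c (1.02), and in the authors' deposited table Trim43c had an adjusted p of 0.0221. Trim43c did not pass the filter here and is named because of that call. It had 3, 3, 1 and 2 counts in scrambled and 6, 7, 11 and 25 counts in knockdown libraries. The gene overlaps 9330159M07Rik on the opposite strand, which rose from 0.69 ± 0.142 to 1.63 ± 0.319 CPM (SD, n = 4; log2 fold change 1.23, edgeR adjusted p = 0.0165).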

How the data were processed

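The authors deposited 1 table of whole-number read counts per gene, with no normalization, and in it, from DESeq2 1.18.1 per the submitters' processing notes, the authors' mean normalized signal, log2 fold change, test score and p-value with its adjusted value. Aligner, counter, strand setting and build: not given in the sources used here. Per the labels' protocols, stranded total RNA libraries were made with 2 ribosomal depletion kits, without saying which library had which. Columns were matched to samples by labels, with 0 unmatched. Each library is 1 of 4 mice per group, per the series' design text.

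Genes were kept by filterByExpr (13462), scaled by TMM and tested with edgeR 4.0.16 in R 4.3.3 (quasi-likelihood F test, two-sided, robust, group as the only term, Benjamini-Hochberg adjustment over all tested genes, threshold 0.05). CPM uses TMM-scaled library sizes, and fold changes are knockdown over scrambled. DESeq2 1.42.0 and limma 3.58.1 (voom), other scalings, filters, a replicate block and leaving out each library were alternatives. The procedure was checked on simulated counts. Gene positions are from GENCODE M21 on GRCm38, and domain classes are from textbook knowledge. Named were members that passed the test or whose groups did not overlap, the 10 with the highest mean CPM, and up to 4 called genes per list and direction by p; smaller classes and the chromosome 7 neighbours are given as well. The members and lists were chosen with earlier results of these data known. Single values of 2 genes of the lists are not reported here.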

Additional observations from a re-analysis of the deposited data

Results flagged for a closer look

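In 54 groups of 4 libraries, covering 27 genes, 6 held a library whose gap to the nearest of the others was, as a share of the group's range, above Dixon's 95% critical value. Chance flags about 1 in 20 such groups. Fubp1 stood at 396 CPM in scrambled library 4, with the other scrambled libraries at 284 to 296. Trim33 stood at 117 CPM in the same library, with the others at 130 to 132. In scrambled library 1, Trim3 stood at 3.89 CPM (others 4.36 to 4.45) and Trim6 at 0.278 CPM (others 0.674 to 0.727). Trim62 stood at 1.71 CPM in knockdown library 3, with the others at 2.52 to 2.58. Trim28 stood at 747 CPM in knockdown library 2, with the others at 704 to 709.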

How the results depend on the processing

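Trim16 and Trim62 were called under all 14 alternatives, Trim35 under 12, Trim2 under 9 and Trim8 under 6 of 14, and Trim6 under 5 and Trim46 under 6 of the 13 that tested them. Over all genes 2062 were called, and the alternatives called from 400 (replicate block) to 3554 (DESeq2). Members called higher numbered 8 with DESeq2, 3 with a filter of 1 CPM, which tests fewer genes, and 2 to 8 with each library left out. Members called lower numbered 0 with no filter (4 at an unadjusted p under 0.05) and 0 to 2 with each library left out. The share called over all genes moved as well. It was 22.2% with DESeq2, 17.1% with the 1 CPM filter, 6.08% with no filter and 3.8% to 24.7% with each library left out. Among the lists, DESeq2 called 1 TRIM-related, 1 KRAB and 5 antiviral genes higher. Limma-voom called 1 E1 or E2 enzyme higher. With no filter 1 E1 or E2 enzyme, 1 antiviral and 0 erythroid genes were higher. With each library left out, the higher counts ran from 0 to 1 (TRIM-related), 0 to 3 (E1 and E2), 0 to 5 (antiviral) and 0 to 6 (erythroid), and the lower counts from 1 to 3 (KRAB), 0 to 1 (antiviral) and 4 to 6 (erythroid). Fubp1 passed with DESeq2 (log2 fold change -0.39, adjusted p = 0.0150) and with no filter (-0.41, 0.0365), and ran from -0.46 to -0.28 with each library left out. Members near 0 changed sign without being called: Trim27 (0.00 with RLE scaling, limma-voom and the block, 0.02 with the 1 CPM filter, -0.05 to 0.03 with each library left out), Trim37 (-0.01 with no filter, -0.06 to 0.04), Trim12a (0.01 with the 1 CPM filter, 0.06 with the block, -0.25 to 0.25), Trim21 (-0.40 to 0.02) and Trim5 (-0.34 to 0.12). The cause of these changes was not tested. With the replicate number as a block, where 2.97% of all genes were called, 2 members were called higher and 1 lower. The lists then gave 0 KRAB lower, 0 E1 and E2 higher, 1 antiviral higher and 0 lower, and 0 erythroid higher and 3 lower. Same-numbered libraries did not deviate together (correlations -0.558 to 0.022, against up to 0.221 to 0.625 with other numbers). With 4 libraries per group these correlations cannot exclude a batch shared by number, and pairing was left unsettled. Members under 1 CPM rest on few counts per library, which limits their precision.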
